A study of Homo sapiens with 18 samples.

Results

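The genes described here are 10 sensors of nucleic acid and regulators of interferon production: CGAS, IFIH1, TLR3, ZBP1, AIM2, MAVS, TBK1, IRF3, IRF7 and IFNB1. They were chosen by symbol among the 60603 genes of the deposited count tables, and all 10 were found. Expression was measured by sequencing of poly(A) RNA in MDA-MB-231 cells, a line of basal breast cancer, and cells were treated with doxorubicin, a chemotherapeutic drug that damages DNA. The study compared the drug with and without an excess of ZMYND8, a chromatin reader, in 9 conditions of 2 libraries each, which the labels call biological replicates. The p-values below rest on the spread between libraries of the same condition. In the main fits that spread was estimated jointly over all conditions of a system and drawn toward that of other genes.

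The inducible system held 12 libraries in 6 conditions. Its cells carried either ZMYND8 cDNA or, as the control, GFP in the doxycycline-inducible lentiviral vector pInducer20, and were kept under G418 selection. Every condition of this system, GFP cells included, received doxycycline at 250 ng/mL. Cells of each construct were left without doxorubicin or were given 0.6 µM doxorubicin, 4 h after the doxycycline, for 6 h or 48 h. Each construct was 1 line, so the construct and the line that carries it cannot be told apart. The transient system held 6 libraries in 3 conditions: untreated controls, cells under 0.6 µM doxorubicin over 48 h, and cells that by their label were transfected with FLAG-ZMYND8 24 h before that same treatment. The labels name no transfection for the controls or for doxorubicin alone. In the labelled libraries against control, the drug, the transfection and ZMYND8 thus cannot be told apart. Against doxorubicin alone, the transfection and ZMYND8 cannot. Levels are given as CPM, counts relative to library size, scaled by the trimmed mean of M-values (TMM) within each system.

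ZMYND8 itself was at 208 and 209 CPM in the GFP libraries and at 922 and 927 CPM in the ZMYND8 libraries without doxorubicin, a log2 fold change of 2.15 ± 0.05 (SE, edgeR adjusted p = 1.2e-23). In the transient system ZMYND8 was at 182 and 123 CPM with doxorubicin and at 160 and 125 CPM in the libraries labelled FLAG-ZMYND8 plus doxorubicin, so those libraries did not hold more ZMYND8 mRNA than their comparison group. The second library of each of those transient conditions also stood apart as a pair. The chi-square of their counts, divided by its degrees of freedom, was 1.39, against 9.71 to 55.6 for the other 14 pairs of transient libraries. The transient changes of CGAS and IFIH1 with doxorubicin, and the numbers of genes called, are therefore given with and without single libraries. Total counts were 18300628 to 23724398 in the inducible libraries and 5729294 to 5972396 in the transient ones, except 24713822 in the second doxorubicin library. Markers chosen for the mesenchymal basal type, among them VIM and CD44, were all 6 detected in every library. Their summed level was 7863 to 7876 CPM in untreated GFP cells and 4014 to 4127 CPM at 48 h, and all 6 were called lower at 48 h in both constructs. The summed level of 6 luminal markers was 53.6 to 55.6 CPM in GFP and 30.5 to 30.8 CPM in ZMYND8 cells without doxorubicin, and 52.0 to 55.6 and 49.9 to 50.0 CPM at 48 h. That sum joins opposed changes. At 48 h 3 of the 6 were called higher and 2 lower in GFP cells, and 4 and 1 in ZMYND8 cells. Over all genes tested, 32.4% were called higher and 31.8% lower in GFP cells, and 31.6% and 30.8% in ZMYND8 cells. The summed level of 6 leukocyte markers was 15.5 to 23.2 CPM in GFP cells and 2.66 to 6.75 CPM in ZMYND8 cells of all times. CD14 alone was at 2.01 to 19.8 CPM over the inducible libraries. Of 3 tested leukocyte markers, 2 were called higher at 48 h in GFP cells and 3 in ZMYND8 cells. Without doxorubicin 2 were called lower in ZMYND8 than in GFP cells (29.5% of all genes tested). These markers move with the drug or the construct, and their part in the results below was not tested. In bulk RNA, fewer cells with a transcript and less of it per cell cannot be told apart.

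The 10 genes hold several parallel sensors and some of the steps after them. cGAS, the product of CGAS, binds double-stranded DNA in the cytosol and makes a cyclic dinucleotide that activates the adaptor STING1. AIM2 binds the same kind of ligand but assembles an inflammasome with PYCARD and CASP1, and ZBP1 recognizes nucleic acid in the Z conformation. IFIH1, also called MDA5, detects long double-stranded RNA in the cytosol and signals through MAVS on mitochondria, while TLR3 detects double-stranded RNA in endosomes. TBK1 is the kinase on which STING1, MAVS and TLR3 signals converge. It phosphorylates IRF3, the transcription factor that, with IRF7, switches on IFNB1, the gene of interferon beta. Several of these genes, among them IFIH1, AIM2 and IRF7, are themselves known to be induced by interferon.

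Levels were compared between genes per length, as RPKM, which divides CPM by the length of a gene's exons in kilobases. In GFP cells without doxorubicin MAVS stood highest at 27.0 ± 0.45 RPKM (SD, n = 2), followed by IRF3 at 16.5 ± 1.02, CGAS at 13.8 ± 0.49 and TBK1 at 7.38 ± 0.52 RPKM. IFIH1 was at 4.36 ± 0.072, AIM2 at 2.56 ± 0.51 and TLR3 at 1.38 ± 0.077 RPKM. The libraries of each of these neighbours in the order did not overlap. IRF7, ZBP1 and IFNB1 lay below them, at 0.168, 0.00469 and 0 RPKM. The order differed in ZMYND8 cells given doxorubicin for 48 h. There CGAS was highest at 32.5 ± 1.23 RPKM, IRF3 was at 30.5 ± 0.89, IFIH1 at 21.5 ± 0.28 and MAVS at 17.9 ± 0.027 RPKM, and AIM2 followed at 16.8 ± 0.55 RPKM. In those cells the order of IRF7 and TLR3 could not be told, since their libraries overlapped.

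**Figure D1:**
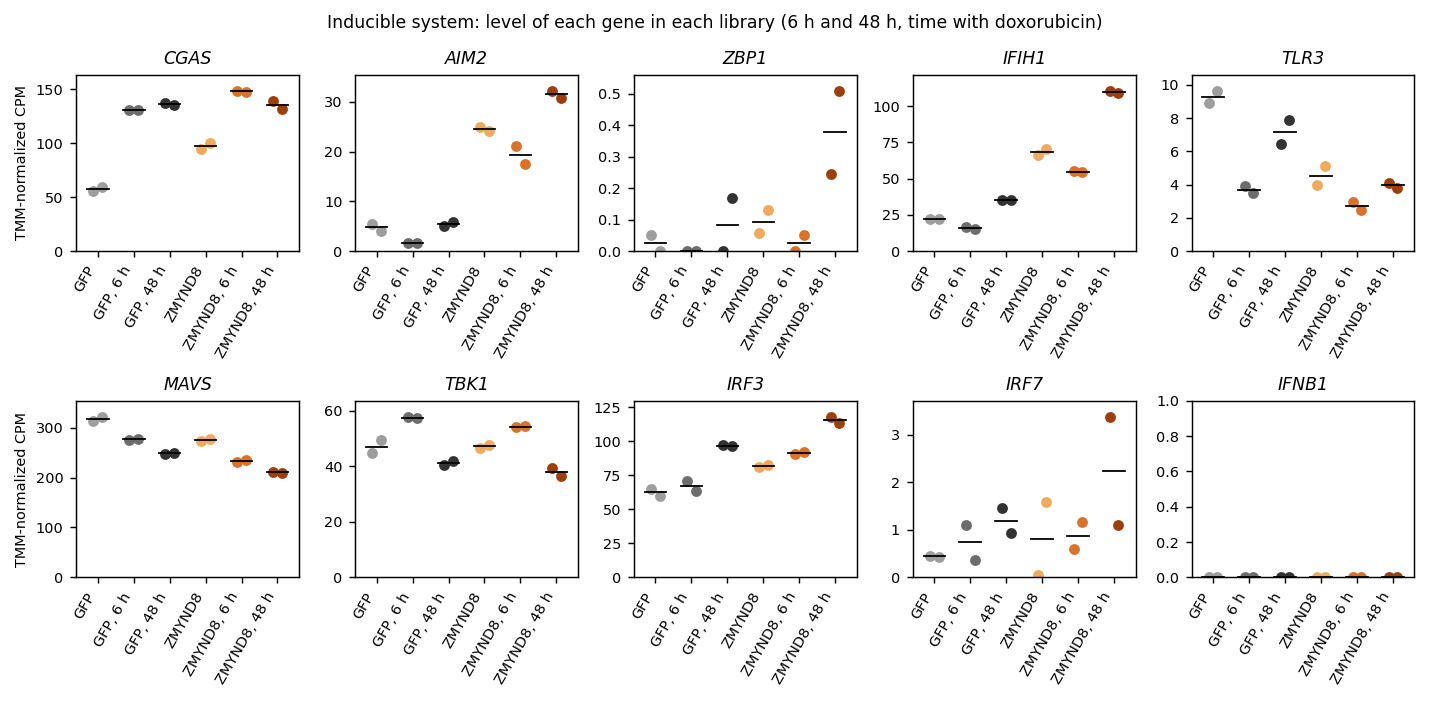
Level of each of the 10 genes in the inducible system. Each point is 1 library, the bar is the mean of the 2 libraries, the vertical axis is TMM-normalized CPM from 0, and the horizontal axis gives the construct and the hours of doxorubicin. AIM2 and IFIH1 stand higher in all 6 ZMYND8 libraries than in all 6 GFP libraries, CGAS lies at 56.1 to 59.0 CPM only in GFP cells without doxorubicin, and IFNB1 is at 0 throughout.

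IFNB1 had 0 counts in all 18 libraries. A count of 0 allows up to 3 counts, counting error only. Relative to total counts, without TMM scaling, that is 0.126 to 0.164 CPM in inducible and 0.121 to 0.524 CPM in transient libraries. Interferon beta mRNA was thus not detectable at this depth in any condition. ZBP1 was nearly as scarce, with 0 to 12 counts in a library. Its highest counts were 6 and 12 in ZMYND8 cells after 48 h of doxorubicin, against 0 and 4 in GFP cells at that time, 1 and 3 in ZMYND8 cells without the drug and 0 or 1 in all 6 transient libraries. IFNB1 and ZBP1 passed the filter on low counts in neither system, and IRF7 did not in the transient one. These left 8 genes tested in the inducible and 7 in the transient system.

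The effect of the construct was asked first, by comparing ZMYND8 with GFP cells at each time. ZMYND8 cells held more mRNA of the sensors AIM2 and IFIH1 and less of TLR3 and MAVS. Of the 8 tested genes, 4 were called higher (AIM2, IFIH1, CGAS and IRF3) and 2 lower (TLR3 and MAVS) without doxorubicin, a call being an adjusted p of at most 0.05. In that comparison 58.3% of all 18801 genes tested were called, 28.7% higher and 29.5% lower, so 6 of 8 is a share near the background. The 8 had a median log2 fold change of 0.57 without doxorubicin, 0.20 at 6 h and 0.13 at 48 h, against 0.00, 0.00 and −0.04 over all genes.

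AIM2 changed most. It was at 5.47 and 4.11 CPM in the GFP libraries and at 25.0 and 24.1 CPM in the ZMYND8 libraries, a log2 fold change of 2.35 ± 0.13 (adjusted p = 6.2e-15). With 6 h of doxorubicin it was at 1.68 and 1.61 against 21.2 and 17.5 CPM, a log2 fold change of 3.56 ± 0.16 (adjusted p = 2.3e-16). With 48 h it was at 5.06 and 5.89 against 32.2 and 30.8 CPM, a log2 fold change of 2.52 ± 0.12 (adjusted p = 2.3e-16). No ZMYND8 library overlapped a GFP library at any time, and the lowest ZMYND8 value was 17.5 CPM against a highest GFP value of 5.89 CPM.

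IFIH1 was higher by a nearly constant factor. It was at 22.5 and 21.9 CPM in GFP cells and 66.1 and 70.4 CPM in ZMYND8 cells, a fold change of 3.08 (log2 1.62 ± 0.06, adjusted p = 2.6e-18). The fold change was 3.45 at 6 h (16.3 and 15.3 against 54.9 and 54.4 CPM) and 3.13 at 48 h (35.1 and 35.0 against 111 and 109 CPM), with adjusted p = 3.1e-18 and 1.1e-19. TLR3, the endosomal sensor of the same kind of RNA, went the other way. It was at 8.92 and 9.65 CPM in GFP cells and 3.96 and 5.12 CPM in ZMYND8 cells, and fell by 1.02 on the log2 scale (SE 0.17, adjusted p = 1.0e-05). At 48 h its levels were 6.44 and 7.91 against 4.11 and 3.79 CPM (log2 fold change −0.86 ± 0.17, adjusted p = 9.6e-05). At 6 h they were 3.88 and 3.48 against 2.96 and 2.47 CPM, which did not pass (log2 fold change −0.44 ± 0.21, adjusted p = 0.077).

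The construct's effect on CGAS depended on the drug. Without doxorubicin CGAS was at 56.1 and 59.0 CPM in GFP cells and 94.8 and 100.3 CPM in ZMYND8 cells, a fold change of 1.70 (log2 0.76 ± 0.05, adjusted p = 2.6e-13). After 6 h the difference was 0.18 ± 0.04 on the log2 scale (adjusted p = 8.9e-04), with 130.3 and 131 CPM in GFP cells against 149 and 148 CPM. After 48 h the levels were 137 and 135 against 139 and 132 CPM, and the libraries overlapped. That difference was −0.01 with a 95% interval of −0.09 to 0.08 on the log2 scale.

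The adaptor, the kinase and the factor downstream differed less. MAVS was lower in ZMYND8 cells at all 3 times, by 0.21, 0.25 and 0.24 on the log2 scale without doxorubicin, at 6 h and at 48 h, where the adjusted p was at most 2.8e-05 in each. IRF3 was higher, with log2 fold changes of 0.38, 0.45 and 0.26 at those times (adjusted p at most 6.5e-05). A share of 19.4% of its exon length overlaps BCL2L12 on the opposite strand, which the stranded counts of the inducible system keep apart. TBK1 differed at no time by the test, with log2 differences of 0.01 (95% interval −0.12 to 0.13), −0.08 (−0.21 to 0.04) and −0.12 (−0.24 to 0.01). IRF7 could not be placed. Its counts were 9 and 8 in GFP cells and 1 and 36 in ZMYND8 cells, and the log2 difference of 0.99 had an interval of −0.57 to 2.54. At 6 h 5 of 8 genes were called (55.5% of all genes tested) and at 48 h 5 of 8 (60% of all).

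**Figure D2:**
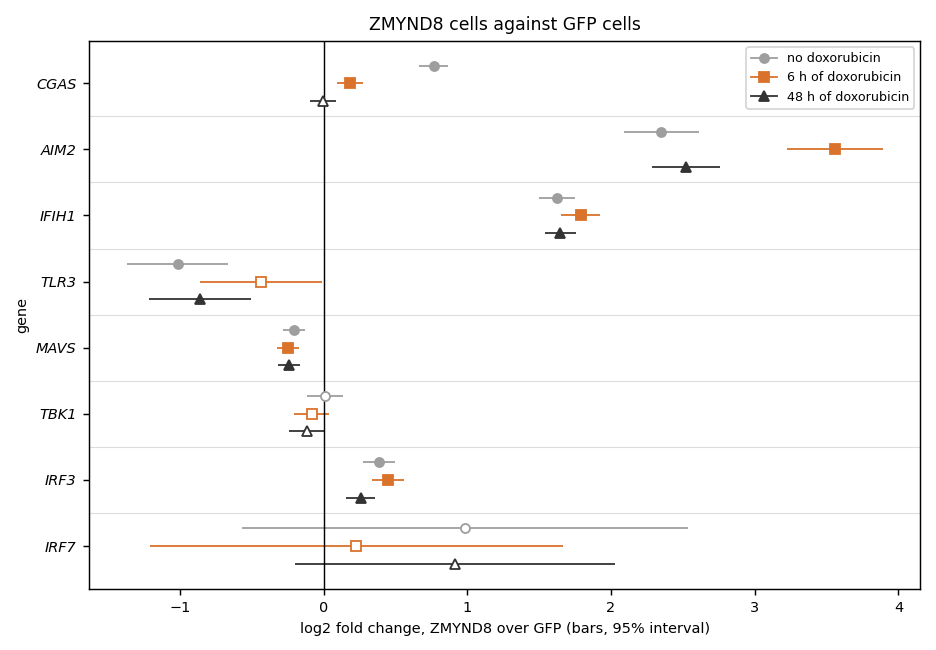
Log2 fold change of ZMYND8 over GFP cells for the 8 tested genes, without doxorubicin and after 6 h and 48 h. Bars are 95% intervals and filled symbols passed an adjusted p of 0.05. AIM2 lies at 2.35 to 3.56 and IFIH1 at 1.62 to 1.79, while CGAS moves from 0.76 to −0.01.

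Promoter sequence was set beside these differences because IFIH1, AIM2 and TLR3 differed most between the constructs without doxorubicin, and 2 of them went against the third. RefSeq windows (GRCh38.p14) of 250 bases before to 50 bases after the start were held for 6 of the 10 genes: AIM2, IFIH1, TLR3, IFNB1, TBK1 and MAVS. They were searched on both strands for the core of the interferon-stimulated response element, which is GAAA, any 2 bases and GAAA again, and for the gamma-activated sequence, TTCNNNGAA. The first reads TTTC, any 2 bases and TTTC on the other strand. The first was in 3.57% and the second in 7.66% of 35116 windows. The 250 bases before the start are printed 5′ to 3′ in the direction of the gene, with matches to the first motif in capitals. IFIH1 is at chr2:162318685-162318934 (minus strand), AIM2 at chr1:159076767-159077016 (minus) and TLR3 at chr4:186068906-186069155 (plus). The window of AIM2 lies inside the span of the gene in the count tables, which is longer at its 5′ end.
IFIH1: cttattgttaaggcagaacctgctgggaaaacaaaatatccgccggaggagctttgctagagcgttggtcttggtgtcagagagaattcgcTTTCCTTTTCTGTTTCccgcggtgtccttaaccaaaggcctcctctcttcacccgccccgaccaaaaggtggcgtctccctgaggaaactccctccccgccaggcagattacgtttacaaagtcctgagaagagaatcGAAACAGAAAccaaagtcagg
AIM2: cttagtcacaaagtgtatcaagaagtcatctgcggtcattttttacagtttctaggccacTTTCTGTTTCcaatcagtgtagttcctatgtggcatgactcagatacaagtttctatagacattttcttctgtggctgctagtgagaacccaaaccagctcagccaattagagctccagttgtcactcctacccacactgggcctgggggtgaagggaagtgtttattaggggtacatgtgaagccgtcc
TLR3: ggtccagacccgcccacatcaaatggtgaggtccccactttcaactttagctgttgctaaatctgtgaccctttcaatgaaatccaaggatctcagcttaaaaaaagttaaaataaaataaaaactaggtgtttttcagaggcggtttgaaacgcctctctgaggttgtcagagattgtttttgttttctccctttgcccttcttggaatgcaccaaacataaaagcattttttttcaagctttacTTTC
IFIH1 had 3 matches to the response element core, of which 2 overlap in the first run of capitals, and AIM2 had 1. TLR3 had 1 as well, of which the first 4 bases are shown, since it runs across the start, and 2 matches to the gamma-activated sequence. The windows of MAVS and TBK1 held neither motif, and that of IFNB1 held 1 gamma-activated sequence and no match to the first motif. The matches describe letters and not binding.

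The effect of doxorubicin was asked next, within each construct. Both times were compared with the same untreated libraries of the construct, for which the labels give no time of harvest. A change with time under the drug thus cannot be told apart from one with time in culture or under doxycycline. CGAS rose in both constructs and at both times. In GFP cells it went from 56.1 and 59.0 CPM to 130.3 and 131 CPM at 6 h and to 137 and 135 CPM at 48 h, fold changes of 2.27 and 2.37 (log2 1.18 ± 0.05 and 1.24 ± 0.05, adjusted p = 5.5e-17 and 3.2e-18). In ZMYND8 cells it went from 94.8 and 100.3 CPM to 149 and 148 CPM and then to 139 and 132 CPM, fold changes of 1.52 and 1.39 (log2 0.60 ± 0.04 and 0.47 ± 0.04, adjusted p = 2.3e-11 and 5.6e-10). The treated libraries of both constructs lay at 130.3 to 149 CPM, above every untreated library.

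The RNA sensors were lower at 6 h. IFIH1 fell at 6 h by 0.49 ± 0.08 on the log2 scale in GFP cells and by 0.32 ± 0.05 in ZMYND8 cells (adjusted p = 5.4e-06 and 1.6e-05). At 48 h it stood above the untreated level, with log2 fold changes of 0.66 ± 0.07 and 0.68 ± 0.05 (adjusted p = 1.1e-09 and 2.5e-12). In both constructs the 2 libraries at 6 h lay below and those at 48 h above the untreated ones. TLR3 fell at 6 h by 1.33 ± 0.18 in GFP cells (adjusted p = 4.5e-07), from 8.92 and 9.65 to 3.88 and 3.48 CPM. In ZMYND8 cells it fell by 0.75 ± 0.20 (adjusted p = 0.0032), a call that was lost without the second untreated ZMYND8 library (log2 fold change −0.54, adjusted p = 0.093). At 48 h its log2 fold change was −0.37 ± 0.16 in GFP cells (adjusted p = 0.045) and −0.21 ± 0.18 in ZMYND8 cells (adjusted p = 0.32). The first of these was lost with total counts (−0.12, adjusted p = 0.51), without the first 48 h GFP library (−0.24, adjusted p = 0.31), and without the first (−0.44, adjusted p = 0.063) or the second untreated GFP library (−0.32, adjusted p = 0.18).

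AIM2 fell at 6 h in GFP cells, from 5.47 and 4.11 to 1.68 and 1.61 CPM, a fall of 1.54 ± 0.21 on the log2 scale (adjusted p = 4.8e-07). In ZMYND8 cells it went from 25.0 and 24.1 to 21.2 and 17.5 CPM (log2 fold change −0.34 ± 0.10, adjusted p = 0.0089), and without the second 6 h ZMYND8 library that change did not pass (−0.21, adjusted p = 0.19). At 48 h it was higher in ZMYND8 cells (0.36 ± 0.10, adjusted p = 0.0018), while in GFP cells the log2 fold change of 0.19 ± 0.16 did not pass (adjusted p = 0.29).

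MAVS fell in both constructs at both times, by 0.20 and 0.24 on the log2 scale at 6 h and by 0.35 and 0.39 at 48 h in GFP and ZMYND8 cells (adjusted p at most 6.3e-05 in each). Its 2 libraries of a condition lay close together, at 314 and 322 CPM in untreated GFP cells and 248 and 250.1 CPM at 48 h. IRF3 rose at 48 h from 65.3 and 59.9 to 97.1 and 96.5 CPM in GFP cells and from 80.8 and 82.5 to 118 and 113 CPM in ZMYND8 cells (log2 0.63 ± 0.05 and 0.50 ± 0.05, adjusted p = 6.9e-11 and 2.4e-09). At 6 h its log2 fold change was 0.10 ± 0.06 in GFP cells (adjusted p = 0.15) and 0.16 ± 0.05 in ZMYND8 cells (adjusted p = 0.014), and the latter was lost without the first untreated ZMYND8 library (adjusted p = 0.08) or without the second treated one (adjusted p = 0.054), and with total counts (0.08, adjusted p = 0.22). With TMM scaling the adaptor and the factor that acts after it moved in opposite directions at 48 h. Scaling to total counts raised the median change over all genes at 48 h, from 0.03 to 0.27 in GFP cells. In ZMYND8 cells it went from 0.05 to 0.25. The fall of MAVS at 48 h is smaller on that scale.

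TBK1 changed little and in both directions. It rose at 6 h by 0.29 ± 0.06 in GFP cells and 0.20 ± 0.06 in ZMYND8 cells on the log2 scale (adjusted p = 2.1e-04 and 0.0079). The latter did not pass without the first untreated ZMYND8 library (0.18, adjusted p = 0.059). At 48 h it fell by 0.19 ± 0.06 and 0.32 ± 0.06 (adjusted p = 0.0072 and 6.1e-05), and the fall in GFP cells became a difference of 0.05 (adjusted p = 0.47) when libraries were scaled to total counts and did not pass without the second untreated GFP library (−0.13, adjusted p = 0.13). With total counts the value in ZMYND8 cells was 0.12 at 6 h and −0.11 at 48 h, and neither passed (adjusted p = 0.12 and 0.11). With total counts the median change over all genes at 48 h went from 0.03 to 0.27 in GFP and from 0.05 to 0.25 in ZMYND8 cells. The split of the called genes at 48 h in GFP cells was 3 higher and 3 lower with TMM and 5 higher and 1 lower with total counts. IRF7 had 33 and 22 counts in GFP cells at 48 h against 9 and 8 without the drug (log2 1.43 ± 0.71, adjusted p = 0.083). In ZMYND8 cells its counts were 83 and 26 against 1 and 36, which overlap. The test called that difference (log2 1.36 ± 0.58, adjusted p = 0.043), but without the first untreated ZMYND8 library it was 0.49 (adjusted p = 0.42) and without the first 48 h library 0.33 (adjusted p = 0.7).

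In GFP cells 6 of 8 genes were called at 6 h (47.9% of all genes tested) and 6 at 48 h (64.2% of all). In the latter 32.4% of all genes were called higher and 31.8% lower. In ZMYND8 cells 7 were called at 6 h (40.8% of all) and 7 at 48 h (62.3% of all, 31.6% higher and 30.8% lower). Comparisons with the same untreated group share its 2 libraries.

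The study's own criterion joined an unadjusted p of at most 0.05 to a minimum change, 1.5 on the log2 scale in the inducible and 1 in the transient system. By it AIM2 was the 1 gene called in GFP cells at 6 h (4.71% of all genes tested), and none was called in GFP cells at 48 h (13.2% of all) or in ZMYND8 cells at 6 h (2.73%) and 48 h (12.4%). In ZMYND8 over GFP cells AIM2 and IFIH1 were called without doxorubicin (11.4% of all), at 6 h (10.6%) and at 48 h (9.44%).

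**Figure D3:**
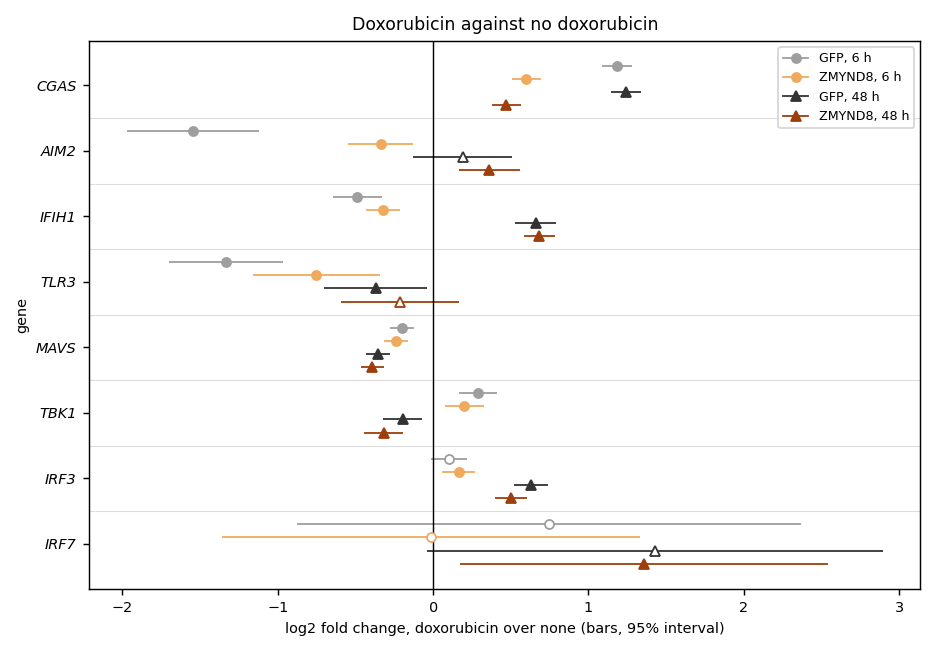
Log2 fold change of doxorubicin over no doxorubicin for the 8 tested genes in GFP and ZMYND8 cells at 6 h and 48 h. Bars are 95% intervals and filled symbols passed an adjusted p of 0.05. The 4 values of CGAS are above 0, at 0.47 to 1.24, and IFIH1 lies below 0 at 6 h and above 0 at 48 h in both constructs.

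Whether the constructs differed in their response was tested as an interaction, the doxorubicin effect in ZMYND8 cells minus that in GFP cells. CGAS rose less in ZMYND8 cells at both times, by −0.58 ± 0.07 on the log2 scale at 6 h and −0.77 ± 0.07 at 48 h (adjusted p = 7.8e-07 and 8.0e-10). These values contain the higher level of CGAS in untreated ZMYND8 cells, since the treated levels were nearly equal. AIM2 fell less in ZMYND8 cells at 6 h, with an interaction of 1.21 ± 0.23 (adjusted p = 7.2e-04). At 48 h its interaction was 0.17 with a 95% interval of −0.20 to 0.55. The interaction of IFIH1 was 0.17 (−0.03 to 0.36) at 6 h and 0.02 (−0.15 to 0.19) at 48 h, so its response to the drug was not shown to differ. At 6 h 2 of 8 genes were called (13.4% of all genes tested) and at 48 h 1 of 8 (28.6% of all), and by the study's criterion 0 at both times (2.01% and 3.7% of all).

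In the transient system the same drug was given for 48 h to cells without the inducible constructs. By their labels, the FLAG-ZMYND8 libraries differ from control by both the drug and the transfection. CGAS was at 45.4 and 45.8 CPM in control libraries, at 66.5 and 102 CPM with doxorubicin and at 69.3 and 106 CPM in the libraries labelled FLAG-ZMYND8 plus doxorubicin. All 4 treated libraries lay above both controls, but the log2 fold changes of 0.90 ± 0.27 and 0.94 ± 0.27 did not pass (edgeR adjusted p = 0.077 and 0.058). The second library of each treated condition, which belong to the close pair named above, was the higher one. Without the second doxorubicin library the log2 fold change was 0.55 (adjusted p = 0.52), and without the first it was 1.16 (adjusted p = 0.047).

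IFIH1 was at 31.7 and 30.6 CPM in control libraries, 31.4 and 63.6 CPM with doxorubicin and 67.1 and 59.7 CPM in the libraries labelled FLAG-ZMYND8 plus doxorubicin. The first doxorubicin library was at the control level and the second at that of the labelled libraries. The log2 fold change was 0.63 ± 0.30 with doxorubicin (adjusted p = 0.24) and 1.03 ± 0.30 in the labelled libraries (adjusted p = 0.063). Without the second doxorubicin library the first of these was 0.01 (adjusted p = 0.99), and without the first it was 1.03 (adjusted p = 0.057). MAVS was at 179 and 198 CPM in control libraries, 255 and 280 CPM with doxorubicin and 229 and 270.0 CPM in the labelled libraries, with log2 fold changes of 0.50 ± 0.20 and 0.41 ± 0.20 (adjusted p = 0.16 and 0.24). These values point up, where MAVS fell in the inducible system.

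AIM2 was at 12.2 and 6.61 CPM in control libraries and 6.57 to 8.62 CPM in the 4 treated ones. TLR3 was at 4.39 and 5.92 CPM in control libraries, 5.73 and 6.63 CPM with doxorubicin and 7.78 and 8.21 CPM in the labelled libraries (log2 fold change 0.63 ± 0.34 over control, adjusted p = 0.28). The labelled libraries lay above both other groups for TLR3 and overlapped both groups for AIM2 and TBK1. For IRF3 they lay barely above control, at 136 and 116.7 CPM against 116.4 and 96.7 CPM. How often 2 libraries separate from 2 in this way over all genes was not counted. TBK1 ranged from 28.4 to 39.9 CPM and IRF3 from 96.7 to 136 CPM over the 6 libraries. IRF7 had 1 to 20 counts. The table was counted as reverse-stranded, yet genes that lie antisense within exons of another gene had 1.46 to 1.65 times its read density in the transient libraries, against 0.0632 to 0.102 in the inducible ones. Reads of CGAS, TBK1 and IRF3 can thus hold reads of opposite-strand neighbours there, over 4.31%, 7.68% and 19.4% of their exon length.

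None of the 7 tested genes was called with doxorubicin (5.13% of all 15697 genes tested), in the labelled libraries against control (6.82% of all) or in the labelled libraries against doxorubicin alone (0% of all) by edgeR. At an unadjusted p under 0.05 the counts were 2, 2 and 0, and DESeq2's test called 1, 2 and 0. By the study's criterion the counts were 0 (8.7% of all), 1, which was IFIH1 (9.84%), and 0 (0.159%). The labelled libraries against doxorubicin alone gave log2 differences from −0.10 to 0.40, and that of IFIH1 had a 95% interval of −0.24 to 1.03. With 2 libraries against 2, an exact permutation test of a single gene gives a two-sided p of at least 0.333.

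**Figure D4:**
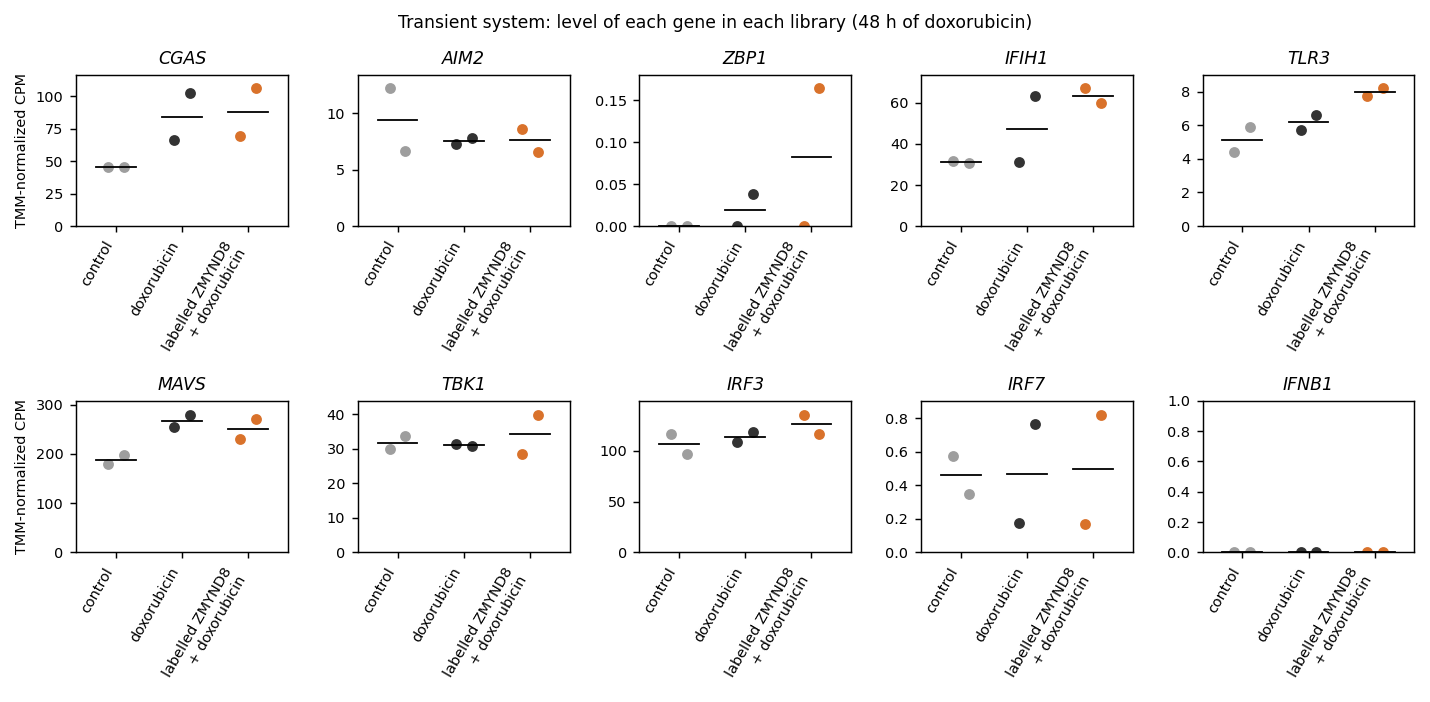
Level of each of the 10 genes in the transient system. Each point is 1 library, the bar is the mean of 2, and the vertical axis is TMM-normalized CPM from 0. The 4 treated libraries lie above both controls for CGAS (66.5 to 106 against 45.4 and 45.8 CPM), and the first doxorubicin library lies at the control level for IFIH1.

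The partners of these genes were described with 8 lists of pathway genes. The list of interferons held 9 genes beside IFNB1, and 1 of them passed the filter in the inducible system. IFNL1, which encodes a type III interferon, had 2 and 0 counts in GFP cells and 16 and 17 after 48 h of doxorubicin, 13 and 20 in ZMYND8 cells and 179 and 169 in ZMYND8 cells after 48 h. It was called higher with doxorubicin in ZMYND8 cells at a log2 fold change of 3.15 ± 0.31 (adjusted p = 1.4e-09) and in ZMYND8 over GFP cells at 48 h at 3.33 ± 0.31 (adjusted p = 4.7e-10). It was also called higher at 48 h in GFP cells (adjusted p = 9.7e-05) and in ZMYND8 over GFP cells without the drug (adjusted p = 5.1e-05), where no fold is given because untreated GFP cells had 2 and 0 counts. IFNA1, IFNA2, IFNE and IFNW1 had 0 counts in all 18 libraries, as IFNB1 did. The list of 16 targets that interferon is known to induce rose with 48 h of doxorubicin, with 15 of 16 called higher in GFP cells (median log2 1.36 against 0.03 over all genes) and 16 of 16 in ZMYND8 cells (1.37 against 0.05). Over all genes tested 32.4% were called higher at 48 h in GFP cells and 31.6% in ZMYND8 cells. In ZMYND8 over GFP cells 12 targets were called higher and 1 lower (median 2.18 against 0.00), where 28.7% and 29.5% of all genes were. RSAD2, which encodes an antiviral enzyme, led that list at a log2 fold change of 4.42 ± 0.16 (adjusted p = 2.1e-18). After 6 h of doxorubicin 9 of the 16 were called lower and none higher in GFP cells, and 8 lower and none higher in ZMYND8 cells, where 25.8% and 19% of all genes were called lower.

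The RNA sensors RIGI and DHX58 were higher in ZMYND8 cells than in GFP cells without doxorubicin, as IFIH1 was, at log2 fold changes of 0.77 ± 0.04 and 0.96 ± 0.10 (adjusted p = 6.5e-15 and 4.1e-09). The other 3 of the 5 tested RNA sensors were called lower. Partners of cGAS and AIM2 were lower in ZMYND8 cells, where CGAS and AIM2 were higher. STING1, the adaptor of cGAS, was at 74.5 and 80.7 CPM in GFP cells and 37.0 and 39.2 CPM in ZMYND8 cells, and fell by 1.02 ± 0.06 on the log2 scale (adjusted p = 3.2e-14). PYCARD and CASP1, which join AIM2 in the inflammasome, were lower by 1.64 ± 0.17 and 1.99 ± 0.19 (adjusted p = 2.6e-09 and 7.3e-10). PYCARD shares 59.7% of its exon length with an antisense gene. IKBKE, the kinase most like TBK1, was at 53.9 and 53.7 CPM in GFP and 13.4 and 13.5 CPM in ZMYND8 cells, lower by 2.00 ± 0.08 (adjusted p = 4.8e-18). Of 10 tested adaptors and kinases 7 were called lower and 1 higher in ZMYND8 cells (median −0.38), of 8 interferon receptors and JAK kinases 6 lower and none higher (median −0.34), and of 5 DNA sensors and inflammasome partners 4 lower and none higher (median −0.41). The last 4 include the DNA sensor DDX41, at −0.41. Over all genes tested 29.5% were called lower and 28.7% higher in this comparison.

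With 48 h of doxorubicin STING1 rose in both constructs, by log2 fold changes of 0.88 ± 0.05 in GFP and 1.16 ± 0.06 in ZMYND8 cells (adjusted p = 2.8e-14 and 1.2e-15), as CGAS did. STAT2, a factor that carries the signal of the interferon receptors, rose by 0.85 ± 0.05 in GFP cells and by 1.18 ± 0.05 in ZMYND8 cells (adjusted p = 1.9e-14 and 1.8e-17). Of 6 tested IRF and STAT factors 2 were called higher and none lower in GFP cells, and 4 higher and none lower in ZMYND8 cells. Of 12 tested nucleases, editing enzymes and feedback genes 6 were called higher and 5 lower in GFP cells, and 7 and 4 in ZMYND8 cells. Over all genes tested 32.4% were called higher and 31.8% lower in GFP cells, and 31.6% and 30.8% in ZMYND8 cells. In the transient system 1 of 15 tested interferon targets was called higher with doxorubicin (median 1.12 against 0.00, with 2.98% of all genes called higher). Without the first doxorubicin library the number was 10, and without the second it was 1. In the labelled libraries against control it was 10 of 15 (median 2.01 against 0.00, with 3.85% of all called higher), and 1 to 5 when any single library of those groups was left out.

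**Figure D5:**
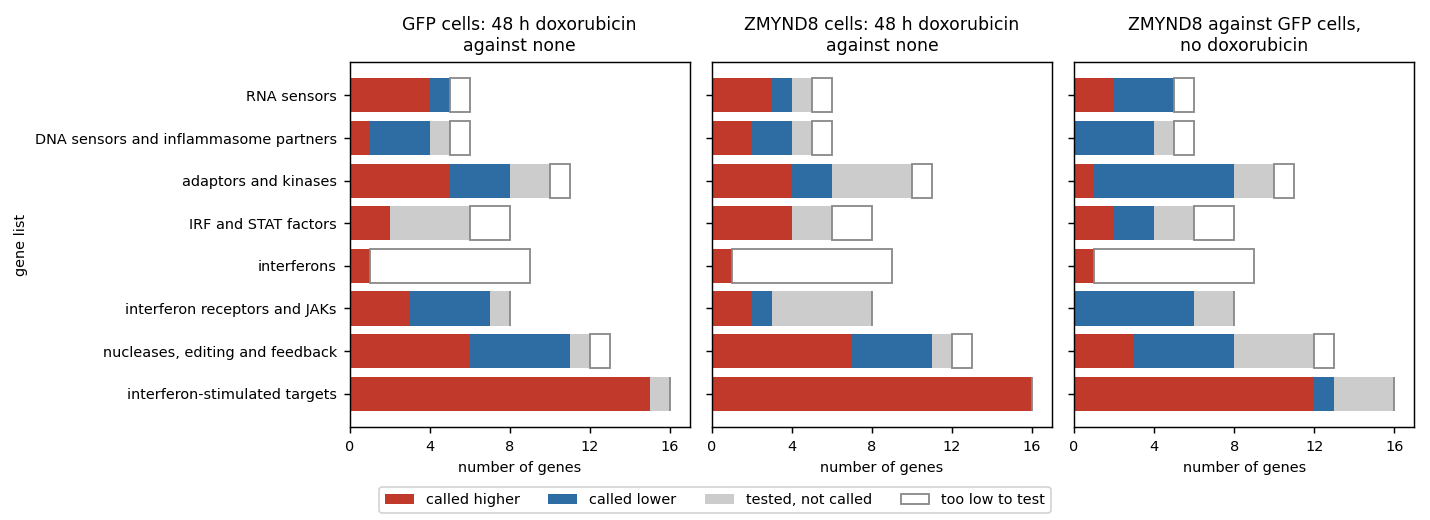
Number of genes called higher, called lower, tested but not called, and too low to test in each of 8 pathway lists, in 3 comparisons of the inducible system. Over all genes tested 32.4%, 31.6% and 28.7% were called higher in these comparisons, and 29.5% lower in the last. The 16 interferon-stimulated targets are called higher in 15 and 16 cases with 48 h of doxorubicin and in 12 cases in ZMYND8 over GFP cells, while 7 of 10 tested adaptors and kinases are called lower in ZMYND8 cells.

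Genes of most similar pattern were sought for the sensors whose means over the 6 inducible conditions spanned at least 1 on the log2 scale, as the smallest root mean square difference of centred log2 CPM among 12836 genes. For AIM2 these were IFIT2, C10orf90 and IFIT1, at differences of 0.264 to 0.338 against a median of 1.53 over all genes ranked, and IFIT1 and IFIT2 are interferon targets. For CGAS they were TAF5, TMEM201 and TOE1 (0.0537 to 0.0946 against 0.588). For IFIH1 they were GEM, DZIP1 and IGFBP6 (0.105 to 0.126 against 1.01), and for TLR3 they were GDPD1, TFDP2 and LOXL1-AS1 (0.114 to 0.145 against 0.696). The points compared are 6 condition means of the same 12 libraries.

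By the coordinates of the count tables (hg38), the sensors of DNA lie at chr6:73413515-73452297 (CGAS), chr1:159062484-159147096 (AIM2) and chr20:57603846-57620576 (ZBP1), all on the minus strand. The sensors of RNA lie at chr2:162267074-162318684 on the minus strand (IFIH1) and chr4:186069152-186088069 on the plus strand (TLR3). MAVS is at chr20:3846799-3876123 and TBK1 at chr12:64452092-64502114, both on the plus strand. On the minus strand are IRF3 at chr19:49659569-49665875, IRF7 at chr11:612553-615983 and IFNB1 at chr9:21077104-21077942. None of the 10 shares exon sequence with another gene on its own strand.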

How the data were processed

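Each library has a deposited column of raw counts (read pairs per gene), without normalization or pooling. Per the file headers, the authors made them with featureCounts 1.6.4 over exons of GENCODE release 31 (hg38), reverse-stranded. The study's methods name TopHat as aligner and the submitters' processing notes name HISAT2, and which one made these files is not given in the sources used here. Symbols were found for 60306 of 60603 genes.

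Conditions came from the sample labels. For each system, counts were filtered with filterByExpr (18801 and 15697 genes left), TMM-scaled and tested by quasi-likelihood in edgeR 4.0.16 under R 4.3.3, the model holding 1 mean per condition. The Benjamini-Hochberg adjustment ran over every gene tested in a system, and a call is an adjusted p of at most 0.05. SEs are the log2 fold change divided by the root of F, and 95% intervals use the t distribution. The fit was tested on simulated data. Alternatives were DESeq2 1.42.0, other scalings, no filter, only the groups compared, a replicate block, the study's criterion (unadjusted p of at most 0.05 with a log2 change of 1.5 in the inducible and 1 in the transient system) and leaving out each library. The alternatives for the interferon targets were chosen after seeing the data. Genes of the pathway lists are named where they were among the 3 called genes of a list with the largest change in the 48 h doxorubicin or the ZMYND8 against GFP comparison. Of the genes this rule names, 1 is not reported here. IFNL1 is also given at 48 h between constructs, picked with its values in view. The 10 genes and the lists were chosen with earlier results of these data known. Promoter windows of CGAS, ZBP1, IRF3 and IRF7 were not used here. Intervals and floors from counts cover counting error only.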

Additional observations from a re-analysis of the deposited data

Results flagged for a closer look

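The response of CGAS to doxorubicin differed between the constructs by the interaction test at both times. At 6 h the difference was −0.58 on the log2 scale and at 48 h it was −0.77, ZMYND8 minus GFP cells. The 4 treated conditions lay at 130.3 to 149 CPM, and the untreated ones at 56.1 and 59.0 CPM in GFP cells and at 94.8 and 100.3 CPM in ZMYND8 cells. The response of AIM2 at 6 h differed as well, by 1.21. In GFP cells AIM2 went to 1.68 and 1.61 CPM and in ZMYND8 cells to 21.2 and 17.5 CPM. Groups of 2 libraries are too small to look for single libraries that stand apart within a group.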

How the results depend on the processing

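Of 93 tested values of the 10 genes 45 were called, and of 536 comparisons of these or newly called values with an alternative 443 kept direction and side of the threshold, 63 lost the call, 27 gained one and 3 changed direction. The changes of direction were TBK1 at 48 h in GFP cells with total counts (0.051), and IRF7 without the second ZMYND8 library, at 3.82 for 6 h in ZMYND8 cells and 3.76 for the interaction at 48 h. Under the study's criterion, which sets a minimum fold, the number of genes called fell to 1 in GFP cells at 6 h and to 0 in GFP cells at 48 h, in ZMYND8 cells at both times and in both interactions, and it was 2 in ZMYND8 over GFP cells without the drug, at 6 h and at 48 h. DESeq2's test called 4 genes in ZMYND8 cells at 6 h against 7 by edgeR. At 48 h it called 4 against 6 in GFP cells and 6 against 7 in ZMYND8 cells. In the other inducible comparisons it called the same number as edgeR. In the transient system doxorubicin against control went from 0 to 1 gene called without a filter or with DESeq2's test and to 2 with the replicate block. The labelled libraries against control gave 2 with total counts, without a filter, with DESeq2's test, with the replicate block or with only the groups compared, and 1 by the study's criterion. The cause of these changes was not tested.

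The replicate block uses numbers that the labels give no meaning. The deviations of same-numbered libraries correlated at −0.0459 to 0.0216 in the inducible and 0.208 to 0.404 in the transient system, where there are only 2 numbers, and the block moved no count in the inducible system by over 1.5 times. With single libraries left out the number of genes called was 4 to 7 in the 4 comparisons of doxorubicin with none in the inducible system, 5 to 7 between constructs, 2 in the interaction at 6 h, 1 to 2 in that at 48 h, 0 to 1 with doxorubicin in the transient system and 0 in the labelled libraries against either group. For the interferon targets the study's criterion gave 6 in GFP and 6 in ZMYND8 cells at 48 h. With doxorubicin in the transient system the number was 4 with total counts, 10 without a filter, 2 with DESeq2's test, 10 by the study's criterion and 5 with the replicate block, and with single libraries left out it was 1 to 10, against 1 to 5 for the labelled libraries against control. Depth limits ZBP1 and IFNB1, which were too low to pass the filter, and IRF7 in the transient system.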
